A study of Mus musculus with 4 samples.

Results

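Transcripts of 86 cytosolic ribosomal protein genes were measured in single cells of mouse salivary glands. They are the genes listed under a symbol made of Rpl or Rps and a digit, or as Rpsa, Rplp0, Rplp1 or Rplp2, out of 32285 genes listed and 19290 with at least 1 UMI. Molecules were counted by unique molecular identifiers (UMIs), short random barcodes added to each captured RNA, so that copies made by PCR count once. Genes of the Rps6k kinases (10) and rows named as pseudogenes with -ps (5) were left out. By role the members were 31 proteins of the small subunit, 43 of the large subunit, the 3 proteins of the P stalk (Rplp0, Rplp1, Rplp2), 8 paralogues of a standard protein (Rpl3l, Rpl7l1, Rpl10l, Rpl22l1, Rpl36al, Rpl39l, Rps27l, Rps27rt), and Rps19bp1, a nucleolar protein named for binding Rps19 that is no part of the ribosome. All 77 standard proteins of the first 3 groups were found, and all 86 members had at least 1 UMI.

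The study deposited 4 samples of submandibular and sublingual gland from female wild-type C57BL/6N mice aged 6 to 8 weeks under physiological conditions. No group was treated, and no comparison between conditions was part of the single-cell experiment. Each of the 4 sample labels names 2 mice, without saying whether these are the same animals, and the study's methods give another number. All samples were in 1 matrix of 15707 barcodes with a single barcode suffix, with no barcode that occurred more than once, so no cell could be assigned to a sample, animal or gland, and no test between samples was possible. The intervals given here are 95% intervals for counting error alone.

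Ribosomal proteins and ribosomal RNA together form the small subunit, which reads the messenger RNA, and the large subunit, which joins the amino acids. The P stalk of the large subunit recruits the factors that drive elongation. Salivary acinar cells make large amounts of secreted protein on ribosomes bound to the endoplasmic reticulum, while lymphocytes are small cells with little cytoplasm. Many ribosomal protein genes in mammals begin with a run of pyrimidines at the start of transcription, a feature of messenger RNAs whose translation depends on growth signals.

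The sequence at the start site is shown for genes that the values below turn on: Rps27 with its paralogues Rps27l and Rps27rt, Rps15a, whose share stood furthest above the other classes among the standard proteins of lymphoid-like cells, Rpl36al, whose share was high in both acinar classes, and the elongation factor Eef1a1, whose levels followed those of the members. Each window holds the 15 bases before and the 15 bases from the start that RefSeq annotates in GRCm38.p6, on the strand of the gene. Capitals mark an unbroken run of at least 8 bases that are C or T, of which a base lies within 5 bases of the start.
Rps27, chr3:90213634-90213663, minus strand: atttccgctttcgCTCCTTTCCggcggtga
Rps27l, chr9:66946071-66946100, plus strand: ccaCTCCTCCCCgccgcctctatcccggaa
Rps27rt, chr9:114982725-114982754, minus strand: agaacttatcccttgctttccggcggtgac
Rps15a, chr7:118116133-118116162, minus strand: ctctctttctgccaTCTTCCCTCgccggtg
Rpl36al, chr12:69184053-69184082, minus strand: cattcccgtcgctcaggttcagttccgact
Eef1a1, chr9:78481710-78481739, minus strand: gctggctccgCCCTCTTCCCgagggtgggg

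Of the 86 members, 66 were in the RefSeq promoter table, and 24 of these or 36.4% had such a run, read on the strand of the gene only and with the longest run kept where a gene had several starts. Among the 77 standard proteins it was 22 of 57 in the table, or 38.6%. The share over all genes of the table was 11.4%, and over the genes with at least 1 UMI in these cells it was 12.6%. Fau and Rack1, a pair of ribosomal proteins that the naming rule leaves out, had runs of 16 bases each, and none of 22 ribosome biogenesis genes in the table had a run. The annotated start may lie some bases from the start used in these cells, and a missing run says only that these letters are not in the window.

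All 86 members were matched by Ensembl identifier to GENCODE M21 on GRCm38. They lay on 19 chromosomes, with 14 of them on chromosome 7 and 4 on the X chromosome (Rpl10, Rpl36a, Rpl39 and Rps4x). The counts come from the 3' ends of RNAs, so each molecule counts once whatever its length, and levels of different members are molecules captured. Ribosomal protein genes have many near-identical copies in the genome, and reads can be lost or split where copies share sequence. In stretches of 90 bases from the last 400 of each transcript, 74 members shared no stretch with another gene of the files. Rpl10, Rpl35, Rpl36a and Rps27rt shared over 50% of theirs. A stretch was shared with a GENCODE M21 gene that is not in the files by 69 members. Rpl36al shared 73.5%, Rpl22l1 40.6% and Rpl22 0.48% of their stretches with such genes. The effect on counts was not tested. Rps27rt shared 89.8% of its stretches with Rps27, so its counts are uncertain.

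The members took 5342348 of 125100595 UMIs, or 4.27%. The 10 largest transcripts, all secretory, took 75.5% of all UMIs, led by Mucl2 at 41.2%, Scgb1b27 at 10.3% and Dcpp3 at 6.47%, and the members took 17.4% of the UMIs outside these 10 largest transcripts. Summed levels are therefore given on both bases, as UMIs per 10000 UMIs of a class and as UMIs per 10000 UMIs outside the 10 largest transcripts. Every cell had ribosomal protein UMIs, with a median of 206 and a range of 5 to 6935. No member was among the 10 largest transcripts, but 18 were among the largest 50, from Rps29 at rank 23 to Rpl36 at rank 50.

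Cells were clustered on genes that held no member, since none of the 86 was among the 2000 most variable genes, and 14 of 25 clusters with 8044 cells were named from marker genes. The other 7663 cells or 48.8% were left unnamed, 6623 of them in 6 clusters with a median under 500 genes. The 8 named classes had median depths of 1866.5 UMIs in the lymphoid-like to 27599 in the serous acinar-like class. The lymphoid-like class was clusters 4 and 20, named from Nkg7, Ptprc, Ccl5, Klrb1c, Ncr1, Ltb, Cd2 and Gzmb. The T-cell and B-cell genes listed (Cd3d, Cd3e, Cd3g, Trac, Cd79a, Cd79b, Ms4a1) were not among its counted markers. Scrublet called 0 of the 15707 cells a doublet, too few for its calls to be relied on, and no cell was removed as a doublet. Free RNA was estimated at 527 UMIs per droplet. Its member share was that of the whole matrix, 4.27%, which gave 22.5 member UMIs per droplet. On that assumption free RNA equalled 1.72% of the member UMIs in basal or myoepithelial-like and 9.08% in mesenchymal-like cells.

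Per total UMI, the summed members were lowest in serous acinar-like cells (2069 cells) at 196 per 10000 (195 to 196) and highest in lymphoid-like cells (1232 cells) at 2904 (2897 to 2910), a log2 ratio of 3.89 (3.89 to 3.90). The mucinous acinar-like class (143 cells) had 607, the ductal epithelial-like class (2721 cells) 934 and the mesenchymal-like class (261 cells) 988. Higher levels were found in the vascular-like class (293 cells) at 1091, the myeloid-like class (1094 cells) at 1893 and the basal or myoepithelial-like class (231 cells) at 2121. The 10 largest transcripts took 90.6% of the summed UMIs of serous and 58.9% of those of mucinous acinar-like cells, and 11.1% to 24.6% in the other 6 classes. The mucinous level rests on the deepest 36 of the 143 cells, since the level per total UMI was 1196, 1392 and 1050 in the depth quartiles with fewer UMIs per cell and 367 in the deepest. In the median mucinous acinar-like cell the members took 11.1% of all UMIs, above the 9.60% of the median ductal epithelial-like and the 9.17% of the median mesenchymal-like cell, so the order of these 3 classes turned.

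Outside the 10 largest transcripts the serous acinar-like class was no longer the lowest. It had 2079 (2075 to 2082) member UMIs per 10000, close to the 2157 (2151 to 2163) of the myeloid-like class. The lymphoid-like class was again the highest at 3474 (3466 to 3481), 1.67-fold above serous acinar-like cells with a log2 ratio of 0.74 (0.74 to 0.74). The basal or myoepithelial-like class followed at 2386, and the mucinous acinar-like class at 1478 (1468 to 1487) and the vascular-like class at 1447 (1439 to 1456) were nearly level. Lowest were the mesenchymal-like class at 1146 (1138 to 1155) and the ductal epithelial-like class at 1097 (1095 to 1099). The mucinous lay below the serous acinar-like level by a log2 ratio of -0.49 (-0.50 to -0.48).

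**Figure D1:**
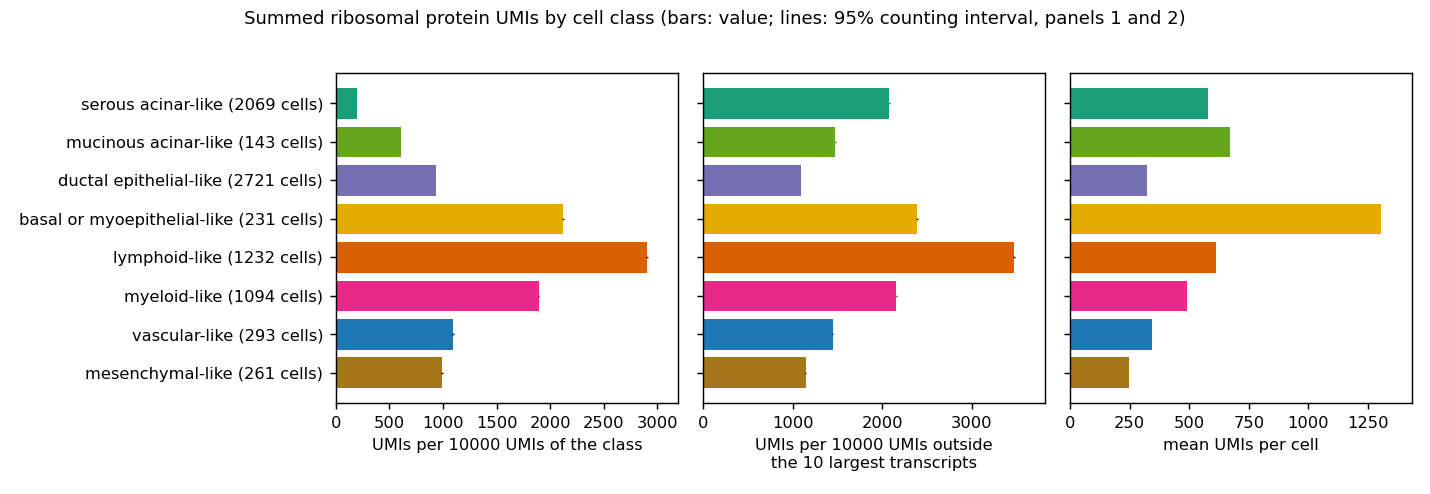
Summed ribosomal protein UMIs in the 8 named classes, as UMIs per 10000 UMIs (left), per 10000 UMIs outside the 10 largest transcripts (middle) and as mean UMIs per cell (right); thin lines are 95% counting intervals in the left and middle panels. The serous acinar-like class went from 196 to 2079 between the left and middle panels, and the lymphoid-like class was the highest in both but not in mean UMIs per cell.

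The mean number of member UMIs per cell gave a different order again. Basal or myoepithelial-like cells had the most with 1307, followed by mucinous acinar-like cells with 672, lymphoid-like cells with 614 and serous acinar-like cells with 578. Mesenchymal-like cells had the fewest with 248. The lymphoid-like class, highest as a share, was thus close to serous acinar-like cells in captured molecules, with a log2 ratio of 0.09. Cells with few other transcripts and cells with many ribosomal protein transcripts cannot be told apart from a share.

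Mitochondrial transcripts and the Klk1 kallikreins, which fill much of the RNA of granular duct cells, also moved with the low ductal level. In the ductal epithelial-like class they made up 13.2% and 9.36% of the UMIs outside the 10 largest transcripts. Mitochondrial transcripts were 3.93% to 9.59% in the other 7 classes. With both taken out of the denominator the ductal epithelial-like class stood at 1417 per 10000, above the mesenchymal-like class at 1217, and the serous acinar-like class at 2308, above the myeloid-like class at 2263. The lymphoid-like class stayed highest at 3622.

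Single cells showed the same separation of the lymphoid-like class. The median cell of that class gave 35.7% of its UMIs outside the 10 largest transcripts to the members, with a middle 50% of cells between 32.5% and 38.6%. The 5th percentile of lymphoid-like cells, 25.4%, lay near the 95th percentile of serous acinar-like cells, 25.9%. Basal or myoepithelial-like cells were the most spread, from 13.7% at the 5th to 37.6% at the 95th percentile. Ductal and mesenchymal-like cells had medians of 11.2% and 10.4%, and unnamed cells of 15.6%.

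**Figure D2:**
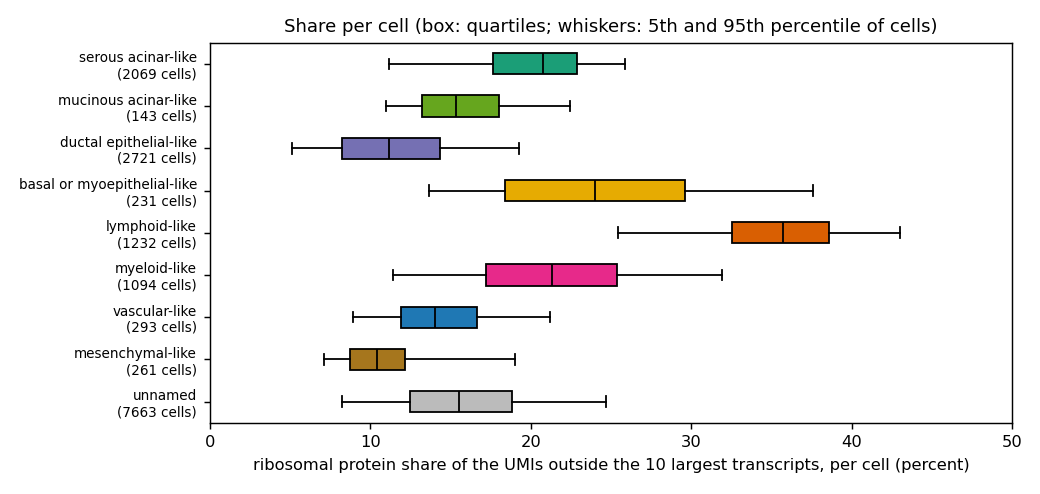
Ribosomal protein share of the UMIs outside the 10 largest transcripts in single cells of each class, in percent; boxes are quartiles and whiskers the 5th and 95th percentile of cells. The lymphoid-like box, from 32.5% to 38.6%, lies above the 95th percentile of every epithelial class but the basal or myoepithelial-like, and of the vascular-like, mesenchymal-like and myeloid-like classes.

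The level also differed with depth inside a class. Among serous acinar-like cells the level outside the 10 largest transcripts was 1782 in the depth quartile with the fewest UMIs per cell and 2156 in the one with the most, at median depths of 6393 and 54186 UMIs. In lymphoid-like cells it was 3551 and 3259. In mucinous acinar-like cells it was 1692 and 1322, and the deepest 36 cells of that class had a median of 29511 UMIs against 6101 in the next quartile. In ductal epithelial-like cells it was 1261 and 1054. The quartiles of lymphoid-like cells all lay above those of the other 7 classes.

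The classes that held several clusters were not uniform. Among ductal epithelial-like clusters the level outside the 10 largest transcripts was 1058 in cluster 3, led by the ionocyte genes Ascl3 and Foxi1, 806 in cluster 7, led by Klk1b kallikreins, and 1685 in cluster 8, led by Esp4 and the transporters Slc9a3 and Slc13a2. In cluster 7 the Klk1 family took 22.0% of these UMIs, and without them and the mitochondrial transcripts the level was 1254. Cluster 16, with the basal keratins Krt5, Krt14 and Krt15, had 2614 and cluster 23, with the contractile genes Acta2, Myh11 and Cnn1, had 1711. Among myeloid-like clusters the C1q-rich cluster 5 had 2035 and cluster 17, led by Lsp1, Napsa and Cd209a, had 2740.

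Outside the 10 largest transcripts, clusters of dividing cells, led by Top2a and Stmn1, did not stand above the other clusters of their class. The dividing lymphoid-like cluster 20 (94 cells) had 3073 against 3534 in lymphoid-like cluster 4. The dividing myeloid-like cluster 24 (37 cells) had 2013 against 2035 in cluster 5. Per total UMI, cluster 20 had 2701 against 2933 in cluster 4, and cluster 24 had 1818 against 1770 in cluster 5. Mean member UMIs per cell were 930 in cluster 20 against 587 in cluster 4. In cluster 24 they were 725, against 429 in cluster 5 and 829 in cluster 17. Among unnamed clusters, the level outside the 10 largest transcripts was 1019 in cluster 9 and 2249 in cluster 15, led by Smgc. Cluster 9 was a secretory cluster led by Dcpp and Mup genes, with 85.7% of its UMIs on the 10 largest transcripts. Cluster 14, led by the same secretory genes as the serous acinar-like cluster but with a median of 335.5 genes, had 1532. Mitochondrial transcripts made up 27.1% of the UMIs outside the 10 largest transcripts in cluster 14. With them also out of the denominator its level was 2102, beside 2299 in the serous acinar-like cluster. The cause of the lower level was not tested.

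**Figure D3:**
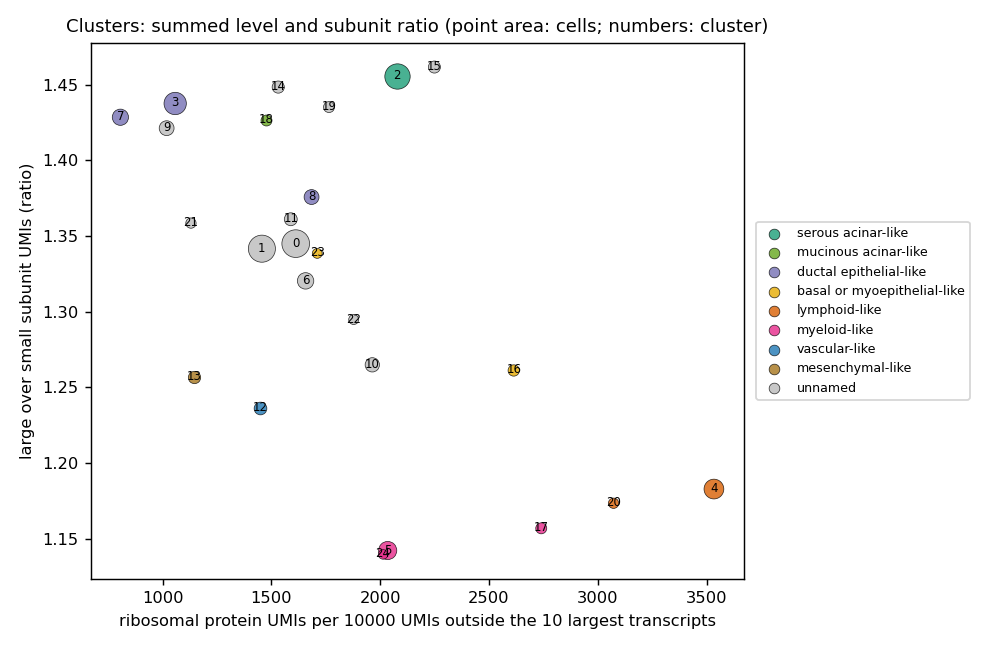
Level of the summed members (UMIs per 10000 UMIs outside the 10 largest transcripts, horizontal axis) against the ratio of large to small subunit UMIs (vertical axis) in the 25 clusters, numbered and coloured by class, with area for the number of cells. The 5 clusters named lymphoid-like or myeloid-like had the lowest ratios, 1.14 to 1.18, at levels from 2013 to 3534.

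Each member was set against the mean of the other 7 named classes, and a difference of at least 2-fold was counted. A mean level of at least 0.2 per 10000 was required, which 83 members met. Outside the 10 largest transcripts, 42 of 83 members were at least 2-fold higher in lymphoid-like cells, beside 7.55% of all genes tested, and none was 2-fold lower, beside 36.9%. The median log2 difference of the members was 1.02 and that of all genes tested -0.54. The 77 standard proteins had differences from 0.09 to 1.73 in this class, so every standard protein was above the mean of the other classes. The 42 were 18 of 31 small subunit and 23 of 43 large subunit proteins and the paralogue Rps27rt, and none of the 3 stalk proteins. Per total UMI, 69 members were 2-fold higher in this class, beside 11.7% of all genes.

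In serous acinar-like cells only the paralogues Rpl36al and Rps27l were at least 2-fold higher on this base, beside 11.1% of all genes tested, and 0 members were 2-fold lower, beside 27.6%. The median of the members was 0.15, and the standard proteins ranged from -0.54 to 0.75. Per total UMI, 82 of 83 members were 2-fold lower in this class, but so were 97.8% of all genes tested, and the members with a median of -2.94 lay above the median of all genes of -3.35. In mucinous acinar-like cells 68 members were 2-fold lower per total UMI, beside 59.9% of all genes, a count that uses the same sums in which the deepest 36 cells weigh most. No member passed 2-fold in this class outside the 10 largest transcripts, where 7.66% of all genes were 2-fold higher and 25.3% lower.

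Ductal epithelial-like cells had 23 members at least 2-fold lower outside the 10 largest transcripts, beside 18.6% of all genes, with a median of -0.87 for the members. These were 14 small subunit proteins, 8 large subunit proteins and the paralogue Rpl22l1. None was 2-fold higher, beside 7.51%. Mesenchymal-like cells had 9 members 2-fold lower, beside 17.8%, with a median of -0.80, and none higher, beside 11.7%. In vascular-like cells the count was 1 (Rps27l), beside 16.3% of all genes, with none higher, beside 13.8%, and the median was -0.43. Basal or myoepithelial-like cells had no member past 2-fold, where 6.20% of all genes were higher and 15.8% lower, and a median of 0.38. Myeloid-like cells had none either, where 6.49% of genes were higher and 39.9% lower, and the median of the members was 0.16 where that of all genes was -0.75.

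Per total UMI the remaining classes had few members past 2-fold. None was higher in serous or mucinous acinar-like cells, beside 0.336% and 3.30% of all genes. Basal or myoepithelial-like cells had 9 members higher, beside 15.6%, and 0 lower, beside 13.0%. Myeloid-like cells had 1 higher (Rps29), beside 8.93% of all genes, and ductal epithelial-like cells 3 lower (Rps15a, Rps24 and Rps4x), beside 16%. No member was higher in ductal epithelial-like cells, beside 14.4%, and none was lower in lymphoid-like or myeloid-like cells, beside 28.6% and 25.8%. Vascular-like and mesenchymal-like cells had none in either direction, where 14.8% and 19.0% of all genes were higher and 12.8% and 12.9% lower.

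The 10 most abundant members took 1.98% to 3.69% of the member UMIs each and were Rps29, Rpl41, Rplp1, Rps24, Rpl37a, Rpl39, Rpl37, Rps27, Rpl13 and Rpl38. Rps29 (ENSMUSG00000034892, chr12:69157722-69159186, minus strand), a small zinc-binding protein of the small subunit, led with 197200 UMIs and was found in 96.8% of cells. Its level outside the 10 largest transcripts was 68.9 in serous acinar-like, 52.9 in mucinous acinar-like, 38.8 in ductal epithelial-like, 69.3 in basal or myoepithelial-like, 127 in lymphoid-like, 123 in myeloid-like, 60.9 in vascular-like and 40.8 in mesenchymal-like cells. Both immune classes were high, and the other 6 were at most 69.3.

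Rpl41, which encodes the smallest ribosomal protein, showed another pattern. Its level was 81.9 in serous acinar-like, 69.2 in mucinous acinar-like, 34.9 in ductal epithelial-like, 71.5 in basal or myoepithelial-like, 79.7 in lymphoid-like, 47.5 in myeloid-like, 50.04 in vascular-like and 33.1 in mesenchymal-like cells. The serous acinar-like class was thus level with the lymphoid-like class for this gene. The ranges of the other abundant members over the classes had the lymphoid-like class at the top for Rps24 (20.05 to 103), Rpl37a (24.8 to 90.04), Rpl39 (22.1 to 92.7), Rpl37 (22.9 to 75.7), Rps27 (25.5 to 86.4), Rpl13 (22.3 to 86.3) and Rpl38 (19.9 to 71.2).

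Rplp1 of the P stalk, like Rpl41, had its highest level in serous acinar-like cells. It stood at 58.8 in serous acinar-like and 51.3 in lymphoid-like cells, and at 40.6 in ductal epithelial-like cells, where the summed members were lowest. Its partner Rplp2 had 16.7 in serous acinar-like, 29.4 in lymphoid-like and 12.2 in ductal epithelial-like cells. Rplp0, which anchors both, had 37.5, 45.4 and 15.2. The 3 stalk genes together had medians of 0.55 in serous acinar-like, -0.74 in mucinous acinar-like and -0.50 in ductal epithelial-like cells (log2 over the mean of the other classes), where the large subunit in serous acinar-like cells had 0.16.

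The make-up of the pool was compared next, as the share of each member in the ribosomal protein UMIs of a class, which no denominator of other genes can move. It covered the 83 members with at least 20 UMIs in every class. The pools were alike, with correlations of log2 shares across the members between 0.92 and 0.98 for serous acinar-like cells against each other class. These members are not independent points and share the same libraries. Only 1 standard protein differed 2-fold or more from the mean share of the other classes in any class, Rps15 in lymphoid-like cells (0.179% against 0.363%, log2 -1.02).

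The 5 highest and the 5 lowest ratios of share were those of 4 paralogues, Rps19bp1 and Rplp1. Highest were Rps27l in serous acinar-like cells (log2 1.69), Rpl36al in serous acinar-like cells (1.20), Rplp1 in ductal epithelial-like cells (0.97), Rpl36al in mucinous acinar-like cells (0.96) and Rps19bp1 in ductal epithelial-like cells (0.82). Lowest were Rps27l (-2.02), Rpl7l1 (-1.65), Rps19bp1 (-1.42) and Rpl36al (-1.04) in lymphoid-like cells and Rpl22l1 in myeloid-like cells (-1.14). Rplp1 took 3.70% (3.66% to 3.74%) of the ribosomal protein UMIs of ductal epithelial-like cells, against a mean of 1.89% elsewhere. Of the standard proteins, Rps15a in lymphoid-like cells (2.53% against 1.55%, log2 0.71) and Rps29 in myeloid-like cells (5.71% against 3.54%, log2 0.69) were the next highest among the standard proteins.

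**Figure D4:**
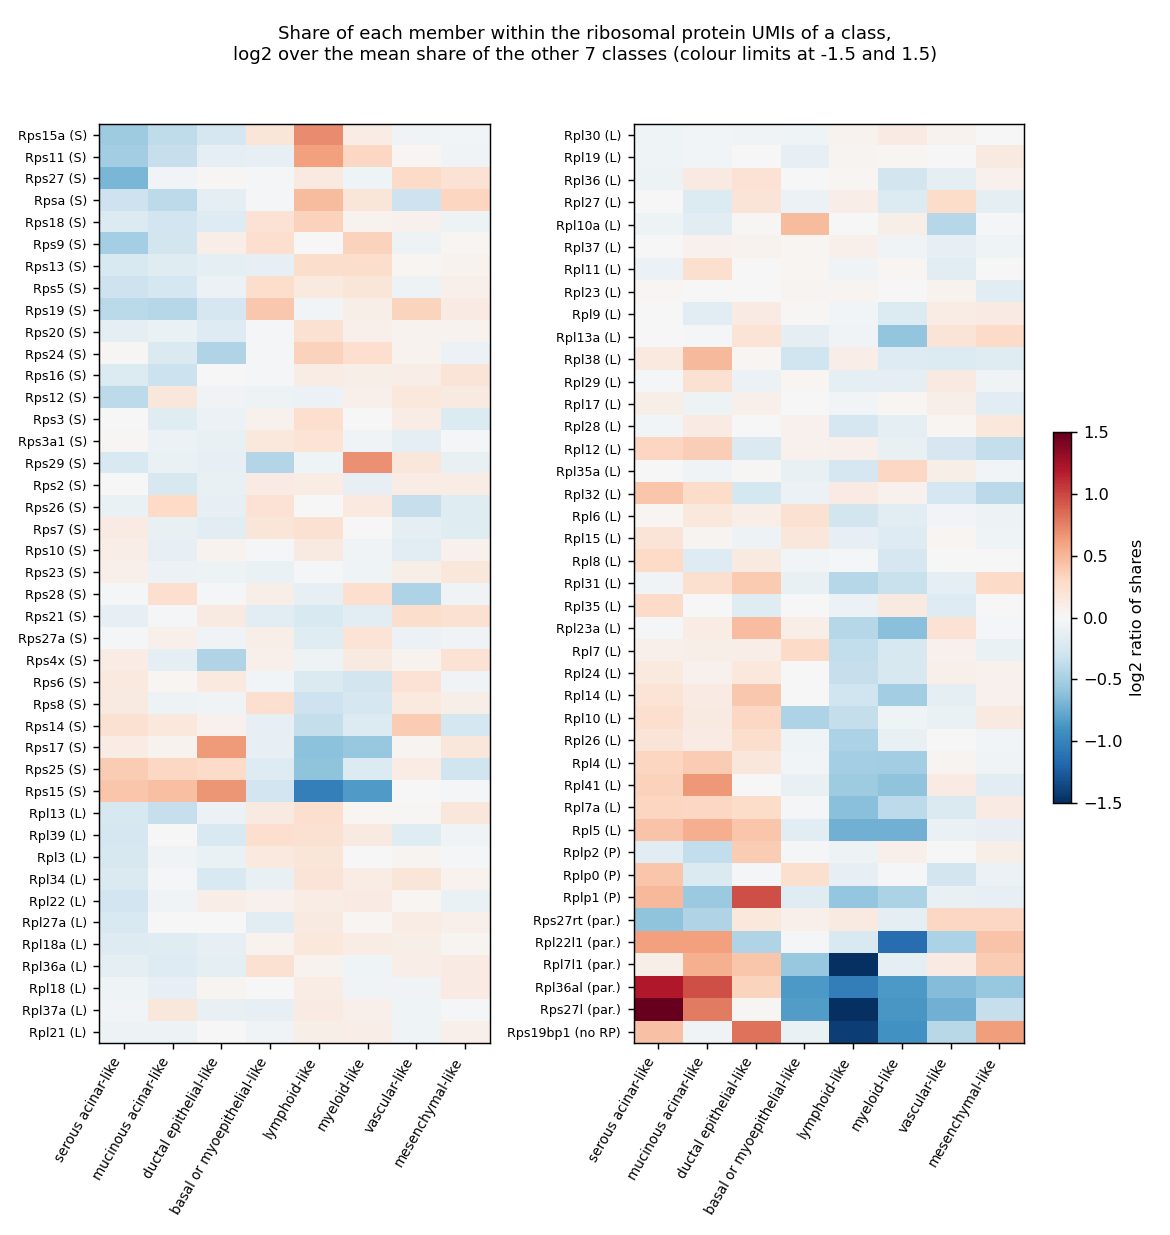
Log2 ratio of the share of each member within the ribosomal protein UMIs of a class to its mean share in the other 7 classes, for 83 members (rows; S small subunit, L large subunit, P stalk, par. paralogue) and 8 classes (columns), with colour for the ratio. Strong colours are at Rps27l (1.69 in serous acinar-like, -2.02 in lymphoid-like), at Rpl7l1 (-1.65) and Rps19bp1 (-1.42) in lymphoid-like cells and at Rpl36al (1.20 in serous acinar-like).

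Small and large subunit transcripts were not in the same proportion in each class. Counting the P stalk with the large subunit, the ratio of large to small subunit UMIs was 1.46 in serous acinar-like, 1.43 in mucinous acinar-like and 1.42 in ductal epithelial-like cells. It was 1.27 in basal or myoepithelial-like, 1.26 in mesenchymal-like and 1.24 in vascular-like cells. The immune classes were lowest, at 1.18 in lymphoid-like and 1.15 in myeloid-like cells. The log2 ratio of lymphoid-like over serous acinar-like cells was -0.30 (-0.31 to -0.29).

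This difference was spread over many genes. Between these 2 classes, 20 of 31 small subunit proteins and 20 of 46 large subunit and stalk proteins took a higher share in lymphoid-like cells, with median log2 ratios of 0.14 and -0.08. The small subunit ranged from -1.28 for Rps15 to 1.07 for Rps15a, and the large subunit and stalk from -1.02 for Rpl5 to 0.43 for Rpl13. Without the 10 most abundant members the ratios were 1.25 in serous acinar-like, 1.04 in lymphoid-like and 1.08 in myeloid-like cells. Leaving out Rps29 alone moved the serous acinar-like ratio to 1.59 and the lymphoid-like ratio to 1.29, and no single member closed the gap between them.

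Paralogues replace or accompany a standard protein, and for 4 of the 8 the share of the pair differed between some classes by more than counting error. Rps27l (ENSMUSG00000036781, chr9:66946086-66949516, plus strand), a near copy of Rps27 known as a target of p53, had a level outside the 10 largest transcripts of 19.5 in serous acinar-like, 8.63 in mucinous acinar-like, 4.13 in ductal epithelial-like, 5.25 in basal or myoepithelial-like, 3.52 in lymphoid-like, 4.63 in myeloid-like, 3.43 in vascular-like and 3.46 in mesenchymal-like cells. Both acinar classes were above the other 6. Rps27 itself went from 25.5 in ductal epithelial-like to 86.4 in lymphoid-like cells, with 31.1 in serous acinar-like cells. Of the UMIs of the pair, Rps27l held 38.5% (37.9% to 39.1%) in serous acinar-like and 3.92% (3.65% to 4.20%) in lymphoid-like cells.

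Rpl36al (ENSMUSG00000049751, chr12:69182731-69184083, minus strand) encodes a protein almost the same as Rpl36a. Its level was 23.7 in serous acinar-like, 14.9 in mucinous acinar-like, 7.72 in ductal epithelial-like, 8.02 in basal or myoepithelial-like, 10.4 in lymphoid-like, 7.29 in myeloid-like, 5.59 in vascular-like and 4.66 in mesenchymal-like cells. It held 71.5% of the pair in serous acinar-like, 69.4% in mucinous acinar-like and 60.6% in ductal epithelial-like cells, while the other 5 classes had 36.9% to 43.0%. The glandular epithelial classes were thus the 3 in which the paralogue outnumbered Rpl36a. Rpl36a shared 61.7% of its 3' stretches with the pseudogene row Rpl36a-ps1, so its own counts are uncertain. Rpl36al shared 73.5% of its stretches with genes that are not in the files, a further limit on the share of this pair.

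Rpl22l1 (ENSMUSG00000039221, chr3:28805436-28807424, plus strand), the partner of Rpl22, had another distribution. Its level was highest in lymphoid-like (14.6) and serous acinar-like cells (14.3) and lowest in ductal epithelial-like cells (3.99), with 5.05 in myeloid-like cells. It held 55.9% of the pair with Rpl22 in serous acinar-like, 52.3% in mucinous acinar-like and 50.4% in mesenchymal-like cells, and 25.1% in myeloid-like cells. Rpl7l1, a protein of ribosome assembly rather than of the finished ribosome, was scarce at 0.313 to 0.567 per 10000 and held 1.39% of the pair with Rpl7 in lymphoid-like cells, where the other classes had 1.88% to 4.12%. The interval in lymphoid-like cells (1.08% to 1.75%) overlapped that in basal or myoepithelial-like cells (1.42% to 2.44%).

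**Figure D5:**
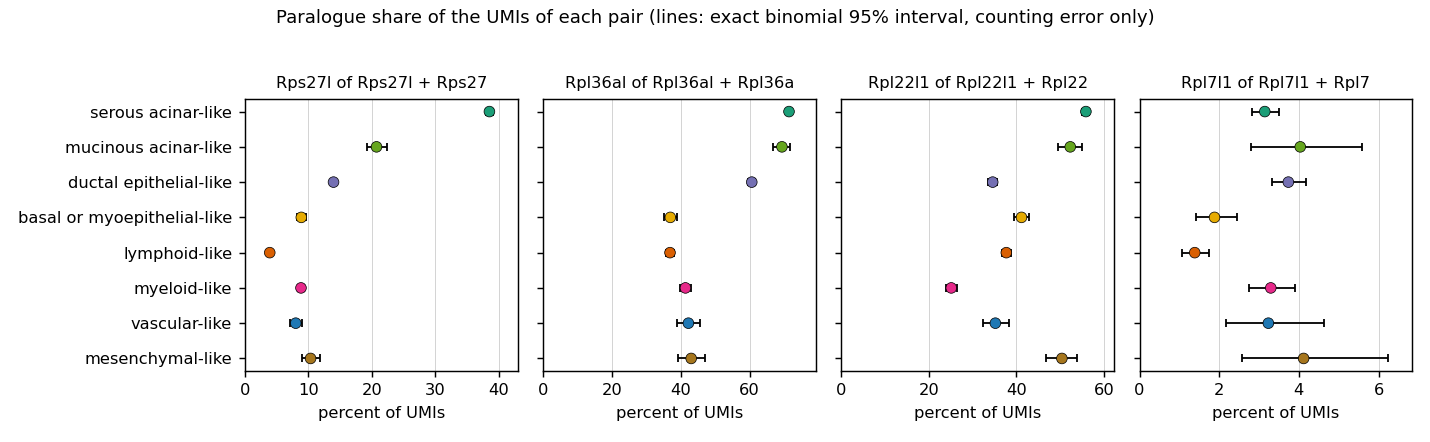
Share of the paralogue in the UMIs of each pair (Rps27l with Rps27, Rpl36al with Rpl36a, Rpl22l1 with Rpl22, Rpl7l1 with Rpl7) in the 8 classes, in percent, with exact binomial 95% intervals. Rps27l goes from 3.92% in lymphoid-like to 38.5% in serous acinar-like cells, and Rpl36al exceeds 60% in 3 epithelial classes.

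Rps27rt, a copy of Rps27 without introns, held 1.24% to 1.73% of the pair's UMIs in the 8 classes, with intervals that all overlapped. Rps19bp1 had 1480 UMIs in all, at 0.287 to 0.692 per 10000. The remaining 3 paralogues were at the limit of detection. Rpl39l had 5 UMIs and Rpl10l and Rpl3l had 2 each in 15707 cells, and no level was read from them.

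Shares of cells with a UMI depended on depth and gave no order of classes. Rps27l was found in 88.7% of serous acinar-like cells and in 42.9% of lymphoid-like cells, whose median depths were 27599 and 1866.5 UMIs. With each cell thinned to 500 UMIs, a depth that no cell lacked, these shares were 8.80% and 14.5%. That is the order of the level per total UMI (1.84 and 2.95) and the opposite of that outside the 10 largest transcripts.

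The ribosomal proteins Fau and Rack1 fall outside the naming rule. Fau, which encodes a fusion to the small subunit protein eS30, had 112236 UMIs and stood at 80.8 in lymphoid-like and 74.5 in myeloid-like cells, against 22.8 to 44.8 in the other classes. Rack1, a scaffold on the small subunit, went from 4.87 in mesenchymal-like to 12.3 in lymphoid-like cells. In lymphoid-like cells their log2 differences from the mean of the other classes were 1.14 for Fau and 0.71 for Rack1, beside a median of 1.02 for the members.

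Other genes of translation had class patterns that were like those of the members to differing degrees. Of 8 genes listed with elongation (Eef genes and Tpt1), 1 (Eef1b2) was 2-fold higher in lymphoid-like cells, beside 7.55% of all genes, with a median of 0.53, and the list had medians of 0.49 in serous acinar-like, -0.61 in ductal epithelial-like and -0.69 in mesenchymal-like cells. Eef1a1, which delivers transfer RNA to the ribosome, was at 54.8 in lymphoid-like, 42.8 in serous acinar-like and 21.9 in mesenchymal-like cells. Tpt1 and Eef2 were instead highest in serous acinar-like cells (46.6 and 12.7), with 42.6 and 7.01 in lymphoid-like cells. Of 29 initiation factor genes, 3 were 2-fold higher and 1 lower in lymphoid-like cells, with a median of -0.03, where 7.55% of all genes were higher and 36.9% lower and their median was -0.54. In serous acinar-like cells 2 of the 29 were 2-fold higher, beside 11.1% of all genes, and Pabpc1, the poly(A) binding protein, stood at 15.5 there and at 2.55 to 6.67 elsewhere.

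Genes of ribosome assembly (21 of 26 tested) had medians of 0.39 in basal or myoepithelial-like, 0.26 in lymphoid-like and -0.02 in serous acinar-like cells. Among them the nucleolar genes Npm1 and Ncl were high in lymphoid-like (9.11 and 4.49) and basal or myoepithelial-like cells (8.46 and 5.15), and Npm1 had 3.23 in serous acinar-like cells. Nop10 and Polr1d of the same list were highest in serous acinar-like cells (5.25 and 4.92). They had 3.99 and 3.02 in lymphoid-like and 2.92 and 3.16 in basal or myoepithelial-like cells. Proteins of mitochondrial ribosomes, 69 of 78 tested, did not follow the cytosolic ones on this base. Their median was 0.69 in serous acinar-like, where 11 were 2-fold higher, and -0.10 in lymphoid-like cells, where 6 were 2-fold lower. Over all genes tested, 11.1% were 2-fold higher in serous acinar-like and 36.9% lower in lymphoid-like cells, with medians of -0.22 and -0.54. Taken per total UMI, the mitochondrial set had the same signs as the members. Its medians were -2.27 in serous acinar-like and 0.35 in lymphoid-like cells, and those of the members -2.94 and 1.35. In serous acinar-like cells 55 of 56 tested were then 2-fold lower, beside 97.8% of all genes.

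Genes that carry proteins into the endoplasmic reticulum had another pattern outside the 10 largest transcripts. In serous acinar-like cells 17 of 23 were 2-fold higher, beside 11.1% of all genes, with a median of 1.36. In mucinous acinar-like cells 8 were 2-fold higher, beside 7.66% of all genes, with a median of 0.89. The corresponding medians of the ribosomal proteins were 0.15 and -0.44. Sec61b, a subunit of the translocation channel, had a level of 25.7 in the serous and of 15.9 in the mucinous acinar-like class. The other classes had 3.70 to 6.04. Nuclear genes of oxidative phosphorylation were highest in ductal epithelial-like cells, where 10 of 34 were 2-fold higher, beside 7.51% of all genes. Their median was 0.87, while the members had -0.87 in that class. The endoplasmic reticulum genes turned per total UMI in serous acinar-like cells, where 17 of 22 were 2-fold lower, beside 97.8% of all genes. Their median there was -1.44, with -2.94 for the members and -3.35 for all genes.

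Over the 8 classes, genes other than members whose log2 level outside the 10 largest transcripts was among the most like the summed members were, by Pearson's r, Eef1b2 (0.99), Eif3h (0.97), Rack1 (0.96), Eef1a1 (0.94), Snrpf (0.94), Eif3k (0.94), Nsa2 (0.92), Eef1d (0.91) and Aimp1 (0.91). They were drawn from 2482 genes with at least 20 UMIs in every class. The median r was 0.97 for the members, which are part of the sum, and -0.20 for the others. The points are 8 classes of the same libraries, so the values describe this matrix only.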

How the data were processed

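Single-cell RNA-seq (10x, 3' tags) was performed on 4 samples of submandibular and sublingual gland. The authors deposited UMI counts per gene and cell, which the submitters' processing notes and the study's methods link to Cell Ranger 6.0.1, the mm10 build and Seurat 4.1.1. The matrix pools all samples, with no column that maps cells to samples, and was used as 1 sample. No test was therefore run, and intervals are exact 95% Poisson or binomial intervals that cover counting error only.

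All 15707 barcodes were kept (median 2608 UMIs and 689 genes). Clustering used Seurat 5.3.0 in R 4.3.3 with log-normalization, 2000 variable genes less the 20 that the study plots, 20 principal components and a resolution of 0.5. Clusters were named "-like" from marker lists, by at least 3 markers found in at least 25% of cells, a median of at least 500 genes and no stronger list. This naming rule was settled after the clusters were seen. Scrublet (scanpy 1.11.5) called no doublets. Free RNA was left in, and taken away only as an alternative. UMIs were summed per class in Python 3.11.15 (numpy 2.4.6, scipy 1.17.1) and scaled per 10000. A fold sets a class against the mean of the other 7 named classes, for genes with a mean level of at least 0.2. The scripts were tested on simulated data.

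The genes named are the 10 members with the most UMIs, the 5 highest and 5 lowest shares of the pool, all paralogues, ribosomal proteins outside the naming rule, the most abundant genes of the lists and genes among the 10 most like the members. A gene that this rule names is not reported here. Other genes were picked after their values were seen (Rplp0, Rplp2, Rps15, Rps15a, Rpl5). The members and lists were chosen with earlier results of these data known. Gene positions came from GENCODE M21 on GRCm38 by Ensembl identifier, and start windows from RefSeq on GRCm38.p6. Alternatives changed the clustering, cell filters, free RNA, the weighting of cells and the denominator.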

Additional observations from a re-analysis of the deposited data

Results flagged for a closer look

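Rows named as pseudogenes were outside the gene set, yet 3 of the 5 held UMIs: Rpl10-ps3 had 1405, Rpl9-ps6 had 1183 and Rpl36a-ps1 had 288. Near-identical 3' sequence was found between these and standard genes, with 85.8% of the stretches of Rpl10, 45.9% of those of Rpl9 and 61.7% of those of Rpl36a shared with a gene of the files. The other 2 rows, Rpl9-ps1 and Rpl36-ps4, had 0 UMIs. Rpl10-ps3 stood at 0.593 per 10000 UMIs outside the 10 largest transcripts in serous acinar-like, 0.749 in lymphoid-like and 0.302 in vascular-like cells.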

How the results depend on the processing

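Lymphoid-like cells had the highest summed level under all 13 alternatives that use a denominator or a share, but not in mean UMIs per cell. Keeping the members among the variable genes, counted here, could not differ, since 0 members were among them. At resolution 0.3 and with 10 principal components no cells were named basal or myoepithelial-like, the class next highest in the main setting. No cells were named vascular-like at resolution 0.3. The mucinous acinar-like class, with 143 cells in the main setting, had 279 at resolution 0.3 and 310 with 10 principal components. It had 289 with cells filtered on genes and mitochondrial UMIs, so its ratios in these settings cover a different set of cells. The log2 ratios of lymphoid-like over serous acinar-like cells (3.89 per total UMI, 0.74 outside the 10 largest transcripts) and of mucinous over serous acinar-like cells (-0.49) were, in that order, 3.92, 0.78 and -0.38 at resolution 0.3, 3.73, 0.76 and -0.13 with 10 principal components, 3.92, 0.75 and -0.39 with cells filtered on genes and mitochondrial UMIs, 4.23, 0.78 and -0.51 with free RNA taken away, and 3.79, 0.82 and -0.33 with every cell weighted equally. The first pair was 3.77 and 0.75 at resolution 0.8 and 3.93 and 0.76 without the cells of highest doublet score. With 30 principal components the last pair was 0.77 and -0.48. With the 50 largest transcripts other than members out of the denominator, both lymphoid-like ratios were 0.62 and the mucinous ratio was -0.42. As mean UMIs per cell, both lymphoid-like ratios were 0.086 and the mucinous ratio turned to 0.22. Chosen after seeing the data, a denominator without mitochondrial transcripts gave 0.65 and -0.55, one also without the Klk1 family 0.65 and -0.56, and leaving out the clusters led by Top2a 3.91 and 0.77. The log2 ratio of large to small subunit UMIs (-0.30) was -0.31 with free RNA taken away and -0.26 without the 10 most abundant members, also an added choice. The number of members 2-fold lower in serous acinar-like cells outside the 10 largest transcripts was 0 in all 14 alternatives, that setting included. The ductal epithelial-like or the mesenchymal-like class was lowest, depending on the setting. The causes were not tested.

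No paired analysis was possible because the matrix pools the samples, and no result without 1 sample was obtained, since cells carry no sample name. Depth limits the rare paralogues, and 48.8% of cells were in clusters left unnamed.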
